A study of Homo sapiens with 6 samples.

Results

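The 40 genes described here encode human enzymes that build cholesterol and fatty acids, SREBP transcription factors and their regulators, and other lipid-related proteins. They were taken as a list of named genes and matched by symbol to the Ensembl gene IDs of a table of 20263 genes. The list, like the other gene lists and the motifs below, was chosen with earlier results of these data known. All 40 had a line in the table, and all 40 passed the filter of at least 1 TPM in at least 3 libraries, which kept 12793 genes. TPM is a share of a library's transcripts, corrected for transcript length and set to the same total in every library.

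The RNA came from HCT116, an epithelial cell line established from a human colorectal cancer. The 3 samples of the control group were wild-type cells with no treatment named, labelled WT, and the 3 samples of the other group were the same line treated with CSE, an abbreviation read here as cigarette smoke extract because the series title names smoking. The sources used here do not give the dose of CSE, the time of exposure, a solvent control or whether the samples were separate cultures, so the p-values rest on a spread between samples that may be technical. Being mRNA levels, the values do not measure enzyme activity, lipid content or the cleavage that activates SREBP proteins.

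Cholesterol synthesis starts from acetyl-CoA, passes through mevalonate and farnesyl diphosphate to squalene, and ends in a series of ring modifications that turn lanosterol into cholesterol. Fatty acid synthesis also starts from acetyl-CoA, and its products are then desaturated, elongated and activated by coupling to coenzyme A. SREBF1 and SREBF2 encode membrane-bound precursors of transcription factors: SCAP carries them from the endoplasmic reticulum to the Golgi for cleavage, and the INSIG proteins hold SCAP back when sterols are plentiful. SREBP from SREBF1 is known mainly for fatty acid genes and SREBP from SREBF2 mainly for cholesterol genes, with overlap between them. Epithelial tumour cells use both pathways to supply membrane for growth.

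SREBP proteins bind sterol regulatory elements in promoters, usually beside a CCAAT box that binds NF-Y. Promoter windows from RefSeq (GRCh38.p14, 250 bases before to 50 after a gene's start) were found for 36 of the 40 genes, and ACAT2, FDFT1, SQLE and FASN had no entry. The stretches below are those of SREBF2 and of 4 genes that rose by at least 1.2-fold, shown because they hold the boxes in question; all lie before the gene's start. Capitals mark the element TCACNCCAC or the CCAAT box, which reads ATTGG where it lies on the other strand, and each stretch runs 5′ to 3′ on the strand of its gene. They lie at chr22:41832952-41833023 (SREBF2, plus strand), chr10:100346984-100347071 (SCD, plus strand), chr11:65111778-65111822 (TM7SF2, plus strand), chr5:111512641-111512716 (STARD4, minus strand) and chr1:162790630-162790674 (HSD17B7, plus strand).
SREBF2: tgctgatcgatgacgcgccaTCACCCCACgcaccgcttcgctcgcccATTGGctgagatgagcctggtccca
SCD: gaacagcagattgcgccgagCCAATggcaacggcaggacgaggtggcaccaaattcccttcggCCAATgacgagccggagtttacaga
TM7SF2: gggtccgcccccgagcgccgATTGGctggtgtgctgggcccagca
STARD4: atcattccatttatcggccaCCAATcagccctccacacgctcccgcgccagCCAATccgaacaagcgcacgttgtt
HSD17B7: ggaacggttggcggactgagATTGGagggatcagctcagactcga

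A CCAAT box on either strand was present in a window of 27 of the 36 genes (75.0%), against 43.3% of 10303 genes tested that had a window. Counted by window, the box was in 58.5% of the 53 windows of the 36 genes and in 34.6% of all 35116 windows. Of the 36 genes, 23 were called higher in CSE. A CCAAT box was held by 19 of the 23 (82.6%) and by 8 of the other 13 (61.5%), the strict element TCACNCCAC by 0 of the 23 and 2 of the 13 (15.4%), and the E-box CACGTG by 2 of the 23 (8.7%) and 3 of the 13 (23.1%); these splits were not tested. The strict element, searched like the others on both strands, was found in SREBF2 and ACSL1 only among the 36 (5.56%), against 1.48% of genes tested. Counted by window, the element was in 3.77% of the windows of the 36 genes and in 1.13% of all windows. The Sp1 box GGGCGG was present in 34 of the 36 genes (94.4%), against 77.8% of genes tested. The E-box was present in 5 (13.9%), against 12.5%. By window, the Sp1 box was in 83.0% of those of the 36 genes and in 45.0% of all, and the E-box in 11.3% and 7.26%. Of the 15062 windows of genes tested, 66.4% held the Sp1 box, 9.23% the E-box, 34.7% the CCAAT box and 1.08% the strict element. In the SREBF2 stretch the CCAAT box follows the element, and in SCD and STARD4 there are 2 CCAAT boxes. The motifs do not overlap each other in the stretches shown. A match describes letters in a window and was not tested as a binding site.

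Most of these genes had a higher level in CSE. Of the 40, limma (a linear model across all genes on log2(TPM + 1), Benjamini-Hochberg adjusted p under 0.05) called 27 higher and 1 lower in CSE, and 12 did not pass. Over all genes tested, 50.1% were called, 24.5% as higher and 25.6% as lower. The median log2 fold change (log2(TPM + 1) in CSE minus that in WT, as everywhere here) was 0.18 for the 40 genes and -0.0039 for all genes tested. Rises of 1.2-fold or more on that scale were called in 14 of the 40 and in 11.1% of all genes tested, and falls of that size in 0 of the 40 and in 12.4% of all genes tested. The 3 CSE values lay above the 3 WT values for 27 of the 40, against 27.5% of all genes tested, and below them for 3 of the 40, against 29.9%.

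**Figure D1:**
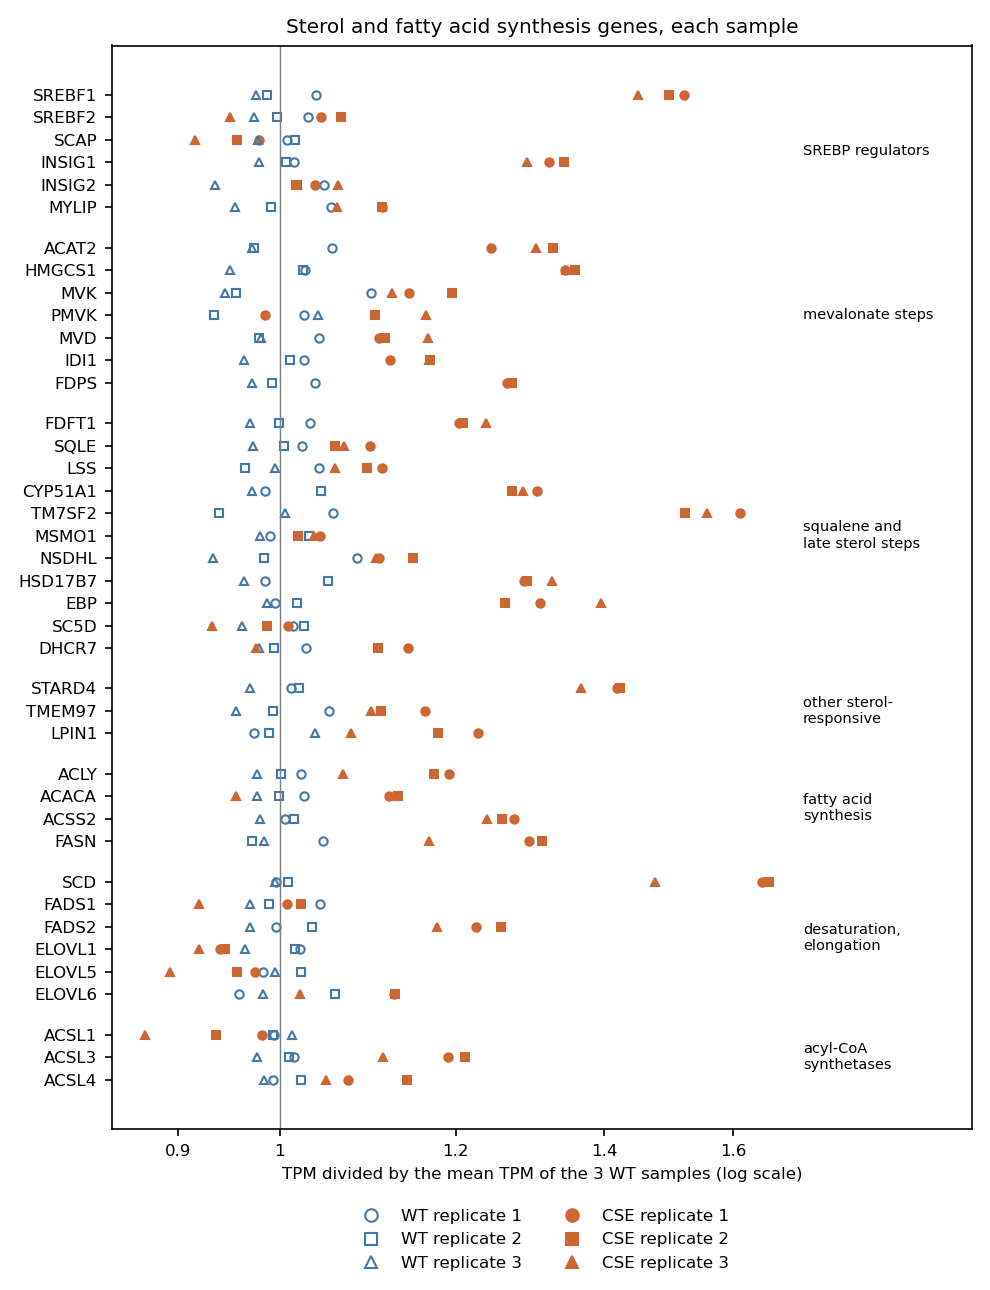
TPM of each of the 40 genes in each of the 6 samples, divided by the mean of the 3 WT samples of that gene, on a log axis; open blue symbols are WT, filled orange symbols CSE, and the symbol shape gives the replicate. SCD, TM7SF2 and SREBF1 stand farthest to the right, and the CSE symbols lie wholly right of the WT symbols for 27 of the 40 genes.

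Transcripts encoded by the mitochondrial genome took 27.0% to 30.2% of the TPM of a WT sample and 25.5% to 25.8% of that of a CSE sample, which changes the share left for all other genes. With these genes left out and the rest rescaled, 22 of the 40 were called higher and 4 lower (ELOVL1, ELOVL5, SCAP and ACSL1), with a median of 0.13. In that fit 18.3% of all genes tested were called higher, 34.3% of the calls were higher instead of 48.9%, and the median of all genes was -0.058. Among 15 markers, the 6 of epithelium (EPCAM, CDH1, KRT8, KRT18, KRT19, CLDN4) summed to between 5324 and 5873 TPM in a sample. Among them KRT19 rose (1839.8 TPM in WT, 2327 in CSE, limma adjusted p = 5.87e-07), EPCAM rose (319 and 347, limma adjusted p = 0.0144), KRT18 fell (1769 and 1488, limma adjusted p = 8.43e-06), and the other 3 did not pass. DCN, a fibroblast marker, was listed at 0 in all samples, and COL1A2, the leukocyte genes PTPRC and CD3E and the endothelial genes PECAM1, VWF and CDH5 stayed under 1 TPM. COL1A1 (43.8 TPM in WT, 37.3 in CSE) and CD68 (17.6 and 12.1) were present and lower in CSE. The other markers of their cell types stayed under 1 TPM, so neither gene is read as a share of fibroblasts or leukocytes. The source of their RNA was not tested.

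Of the 6 genes listed as SREBP regulators, SREBF1 and INSIG1 rose clearly, MYLIP passed narrowly, and SREBF2, SCAP and INSIG2 did not pass. The 3 that rose are 50% of the group, against 24.5% of all genes tested. SREBF1 (ENSG00000072310, chromosome 17, 17810399 to 17837002, minus strand) stood at 104, 99.1 and 97.9 TPM in WT and at 153, 150.3 and 146 in CSE. Every CSE sample was above every WT sample, and the mean went from 100.4 ± 3.35 to 149.6 ± 3.63 TPM (SD, n = 3 each), 1.49-fold (limma adjusted p = 2.23e-10 for a log2 fold change of 0.57 ± 0.0403, SE). Exons of RAI1, on the other strand, cover 6.9% of the exon length of SREBF1, and the sources used here do not say whether the counting used strand.

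SREBF2 (ENSG00000198911, chromosome 22, 41833079 to 41907308, plus strand), the gene whose promoter stretch above holds the sterol regulatory element, had 209.7, 203 and 198 TPM in WT and 213, 217 and 193 in CSE. The groups overlapped, and the highest and the lowest of the 6 values were both CSE samples (limma adjusted p = 0.636 for a log2 fold change of 0.026 ± 0.0433, SE). SCAP, the escort of both precursors, had 49.4, 49.9 and 48.0 TPM in WT and 48.0, 47.0 and 44.9 in CSE (limma adjusted p = 0.187, log2 fold change -0.072). Its values in CSE were mostly lower, with an overlap of the lowest WT and the highest CSE sample.

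INSIG1, the sterol-induced anchor of SCAP (ENSG00000186480, chromosome 7, 155297776 to 155310235, plus strand), had 108, 107 and 104 TPM in WT and 141, 143 and 137 in CSE. The groups were far apart, and its mean rose 1.32-fold, from 106 ± 2.00 to 140.2 ± 2.68 TPM (limma adjusted p = 3.22e-08 for a log2 fold change of 0.40 ± 0.0388, SE). Its paralog INSIG2 had 46.3, 45.0 and 41.4 TPM in WT and 45.9, 45.0 and 47.0 in CSE, and the groups overlapped (limma adjusted p = 0.357 for a log2 fold change of 0.055 ± 0.0483, SE). MYLIP encodes a ubiquitin ligase that marks lipoprotein receptors for breakdown, and it is counted with the SREBP regulators by the list only. It went from 23.3 ± 1.18 to 25.5 ± 0.681 TPM (limma adjusted p = 0.0496, log2 fold change 0.13), a call that was lost in 7 of 14 alternative settings, among them the rescaling without mitochondrially encoded genes (adjusted p = 0.205).

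All 7 genes from acetoacetyl-CoA to farnesyl diphosphate had a positive log2 fold change, with a median of 0.20. Of the 7, 6 rose (85.7%, against 24.5% of all genes tested). HMGCS1, which makes HMG-CoA, the precursor of mevalonate (ENSG00000112972, chromosome 5, 43289395 to 43313512, minus strand), had 73.1, 72.9 and 67.6 TPM in WT and 95.7, 96.7 and 95.8 in CSE. The 3 CSE values lay close together and all were above WT, with a mean of 96.1 ± 0.569 against 71.2 ± 3.11 TPM, 1.35-fold (limma adjusted p = 3.77e-08 for a log2 fold change of 0.43 ± 0.0424, SE). ACAT2, the cytosolic thiolase that makes acetoacetyl-CoA, had 16.8, 15.5 and 15.4 TPM in WT and 19.8, 21.1 and 20.7 in CSE. It rose 1.29-fold without overlap (limma adjusted p = 2.03e-05 for a log2 fold change of 0.35 ± 0.0554, SE), and exons of genes on the other strand, among them TCP1 with 9.2%, cover 52.3% of its exon length. FDPS, the farnesyl diphosphate synthase, had 186, 178 and 174 TPM in WT and 227, 228 and 228 in CSE. It was the most abundant of the 7 and rose 1.27-fold without overlap (limma adjusted p = 1.85e-07 for a log2 fold change of 0.34 ± 0.0380, SE), and its 8 annotated pseudogenes make the single-gene value uncertain. Antisense RNAs cover 18.6% of the exon length of FDPS, 15.0% of that of HMGCS1 and 14.8% of that of IDI1.

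The steps between them rose by less. IDI1, the isopentenyl diphosphate isomerase, went from 68.9 ± 2.23 to 79.4 ± 1.87 TPM (limma adjusted p = 0.000461, log2 fold change 0.20), and MVD, the mevalonate diphosphate decarboxylase, from 94.7 ± 3.36 to 107 ± 2.97 TPM (limma adjusted p = 0.00149, log2 fold change 0.17). MVK, the mevalonate kinase, went from 15.0 ± 1.29 to 17.3 ± 0.557 TPM (limma adjusted p = 0.0105, log2 fold change 0.20). That call was lost without WT replicate 2 (log2 fold change 0.17, adjusted p = 0.0585) or WT replicate 3 (0.16, adjusted p = 0.065). PMVK, the phosphomevalonate kinase, did not pass, with 47.8 ± 2.75 TPM in WT and 51.8 ± 4.36 in CSE (limma adjusted p = 0.1, log2 fold change 0.11), and passed as higher without CSE replicate 1 (adjusted p = 0.00933).

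**Figure D2:**
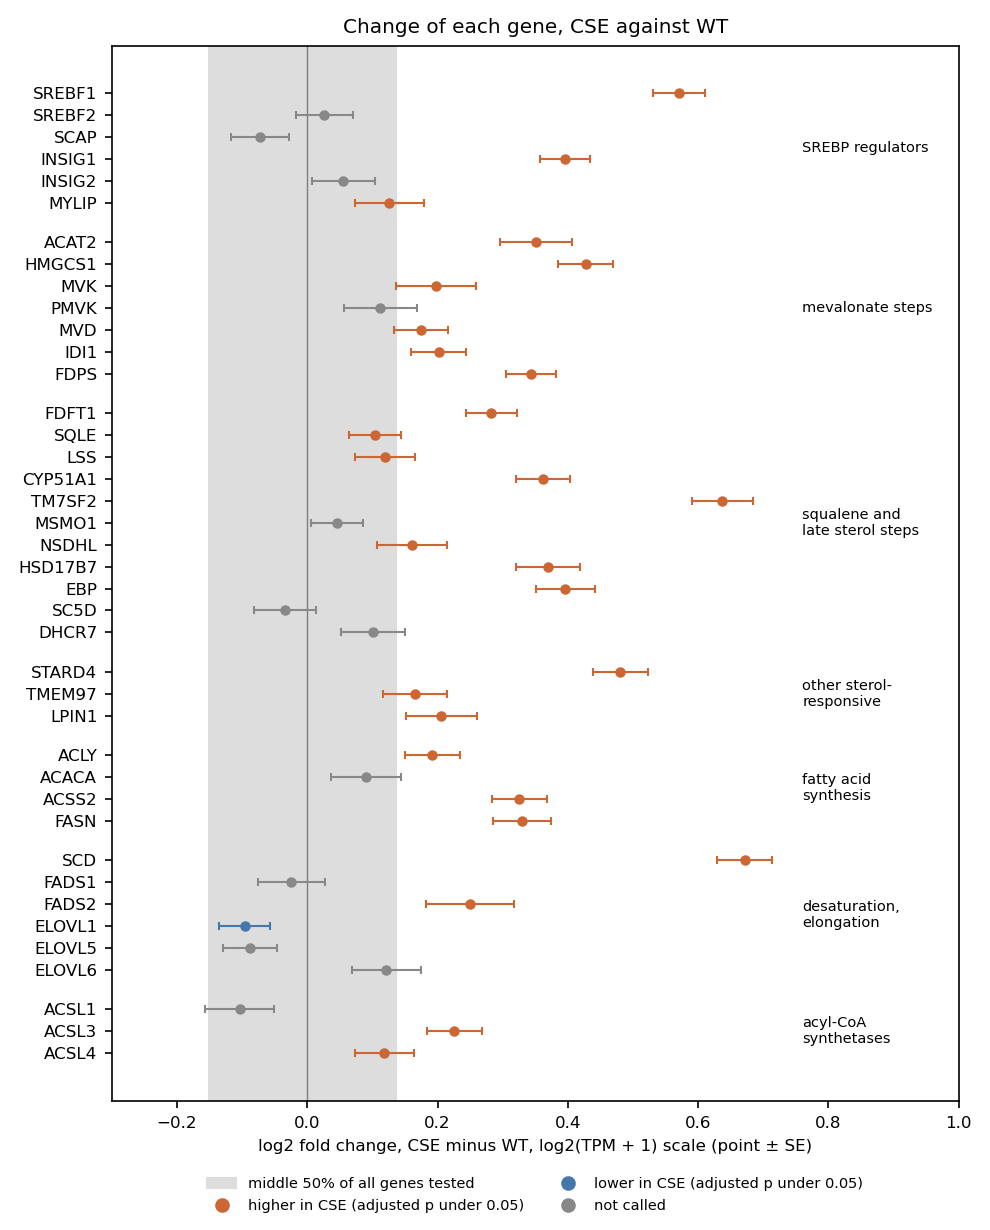
Log2 fold change of each gene (CSE minus WT, from log2(TPM + 1)) with its standard error from limma (n = 3 samples a group); colour gives the call and the grey band holds the middle 50% of all genes tested. Of the 40 genes, 27 are called higher and ELOVL1 alone is called lower, inside the grey band.

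Of the 11 genes from squalene synthesis to the last sterol steps, 8 rose, 0 fell and 3 did not pass. The 8 are 72.7%, against 24.5% of all genes tested called higher, and the median of the 11 was 0.16. TM7SF2, a sterol reductase of the endoplasmic reticulum that acts after the demethylation of lanosterol (ENSG00000149809, chromosome 11, 65111845 to 65116384, plus strand), rose most of the 11. It had 60.5, 53.7 and 57.5 TPM in WT and 92.2, 87.1 and 89.1 in CSE, far apart, with means of 57.2 ± 3.40 and 89.5 ± 2.60 TPM, 1.56-fold (limma adjusted p = 3.48e-10 for a log2 fold change of 0.64 ± 0.0464, SE). EBP, the sterol isomerase, had 51.2, 52.4 and 50.8 TPM in WT and 67.4, 65.0 and 71.8 in CSE, highest in CSE replicate 3. It rose 1.32-fold (limma adjusted p = 2.92e-07 for a log2 fold change of 0.40 ± 0.0453, SE). HSD17B7, the ketosteroid reductase that acts in the removal of the methyl groups, had 26.5, 28.3 and 26.0 TPM in WT and 34.7, 34.8 and 35.7 in CSE. It rose 1.30-fold without overlap (limma adjusted p = 2.27e-06 for a log2 fold change of 0.37 ± 0.0491, SE), and its 2 annotated pseudogenes make the value uncertain.

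CYP51A1, the lanosterol demethylase, had 74.9, 79.3 and 73.9 TPM in WT and 99.3, 96.7 and 97.9 in CSE. The groups were apart, with a rise of 1.29-fold (limma adjusted p = 3.17e-07 for a log2 fold change of 0.36 ± 0.0416, SE), and 3 pseudogenes are annotated. The protein-coding gene AC000120.2 on the same strand shares 79.4% of its exon length, so the value of CYP51A1 as a single gene is uncertain. FDFT1, the squalene synthase at the entry to the sterol branch, had 141, 137 and 133 TPM in WT and 165, 166 and 169 in CSE. It rose 1.22-fold without overlap (limma adjusted p = 3.59e-06 for a log2 fold change of 0.28 ± 0.0389, SE).

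SQLE and LSS, which turn squalene into lanosterol, and NSDHL, a dehydrogenase of the demethylation steps, rose by little. SQLE, the squalene epoxidase, went from 116 ± 2.96 to 124 ± 2.31 TPM (limma adjusted p = 0.0323, log2 fold change 0.10), LSS, the cyclase, from 38.3 ± 1.47 to 41.7 ± 1.03 TPM (limma adjusted p = 0.0384, log2 fold change 0.12), and NSDHL from 28.7 ± 2.19 to 32.2 ± 0.680 TPM (limma adjusted p = 0.0162, log2 fold change 0.16). The calls of SQLE and LSS were each lost in 6 of 14 alternative settings and that of NSDHL in 4, in each case also without mitochondrially encoded genes (adjusted p = 0.218, 0.21 and 0.071). MSMO1, the methylsterol oxidase, averaged 99.9 ± 2.70 TPM in WT and 103 ± 1.23 in CSE (limma adjusted p = 0.355, log2 fold change 0.046), and SC5D, the sterol desaturase, 43.0 ± 1.44 and 42.0 ± 1.70 TPM (limma adjusted p = 0.566, log2 fold change -0.035). DHCR7, the reductase of the last step, had 103, 99.3 and 97.8 TPM in WT and 114, 111 and 97.6 in CSE (limma adjusted p = 0.0946, log2 fold change 0.10). Its CSE replicate 3 lay under all WT samples and the other CSE samples above them, and without that replicate DHCR7 passed as higher (log2 fold change 0.17, adjusted p = 0.00205).

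The 3 other sterol-responsive genes all rose, against 24.5% of all genes tested. STARD4, a soluble sterol carrier between membranes, had 56.3, 56.8 and 54.0 TPM in WT and 79.0, 79.2 and 76.1 in CSE. Its groups were far apart and its mean rose 1.40-fold, from 55.7 ± 1.51 to 78.1 ± 1.73 TPM (limma adjusted p = 6.38e-09 for a log2 fold change of 0.48 ± 0.0424, SE). LPIN1, a phosphatidate phosphatase of glycerolipid synthesis, went from 22.9 ± 0.758 to 26.5 ± 1.76 TPM (limma adjusted p = 0.00362, log2 fold change 0.21), and TMEM97, a sterol-binding membrane protein known as a sigma receptor, from 33.4 ± 1.63 to 37.6 ± 1.12 TPM (limma adjusted p = 0.00812, log2 fold change 0.16). The TMEM97 call was lost without WT replicate 3 (log2 fold change 0.13, adjusted p = 0.0505) or CSE replicate 1 (0.14, adjusted p = 0.0526), and exons of IFT20 on the other strand cover 11.9% of its exon length.

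Of the 4 genes that supply acetyl-CoA and build the fatty acid chain, FASN, ACSS2 and ACLY rose and ACACA did not pass. The 3 that rose are 75% of the group, against 24.5% of all genes tested, and the median of the 4 was 0.26. FASN, the fatty acid synthase (ENSG00000169710, chromosome 17, 82078333 to 82098332, minus strand), had 286, 266 and 269 TPM in WT and 355, 359.5 and 319.8 in CSE. CSE replicate 3 was the lowest of its group and still above WT, and the mean rose 1.26-fold, from 274 ± 10.8 to 345 ± 21.7 TPM (limma adjusted p = 2.61e-06 for a log2 fold change of 0.33 ± 0.0442, SE). ACSS2, which makes acetyl-CoA from acetate, had 50.4, 50.9 and 49.1 TPM in WT and 64.0, 63.1 and 62.2 in CSE, with little spread in either group. It rose 1.26-fold (limma adjusted p = 1.7e-06 for a log2 fold change of 0.33 ± 0.0423, SE). ACLY, which makes cytosolic acetyl-CoA from citrate, went from 189.7 ± 4.31 to 217 ± 12.7 TPM, 1.14-fold (limma adjusted p = 0.000769, log2 fold change 0.19).

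ACACA encodes the acetyl-CoA carboxylase that makes malonyl-CoA. Its WT values were 60.8, 59.3 and 58.0 TPM and its CSE values 66.5, 67.1 and 56.7 TPM (limma adjusted p = 0.167 for a log2 fold change of 0.09 ± 0.0534, SE). As in DHCR7, CSE replicate 3 lay under all WT samples, and without it ACACA passed as higher (log2 fold change 0.17, adjusted p = 0.00239).

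Among the 6 desaturases and elongases, SCD rose most of all 40 genes, FADS2 rose, ELOVL1 fell slightly, and FADS1, ELOVL5 and ELOVL6 did not pass. The shares of the 6 called were 33.3% higher and 16.7% lower, near the 24.5% and 25.6% of all genes tested. SCD encodes stearoyl-CoA desaturase, which makes monounsaturated fatty acids (ENSG00000099194, chromosome 10, 100347124 to 100364834, plus strand). It had 711, 719.7 and 710.2 TPM in WT and 1176, 1185 and 1053 in CSE. The WT values lay close together and CSE replicate 3 under the other 2 CSE samples, with means of 713 ± 5.40 and 1138 ± 73.8 TPM, 1.60-fold (limma adjusted p = 3.2e-11 for a log2 fold change of 0.67 ± 0.0420, SE). Over the 14 alternative settings its log2 fold change ranged from 0.53 to 0.73. SCD was also the most abundant of the 40 genes in WT, and its rise was 46.9% of the rise in their summed TPM. It has 1 annotated pseudogene, SCDP1, as FADS2 has FADS2P1 and TMEM97 has TMEM97P1 and TMEM97P2, so these values carry the same uncertainty as that of FDPS.

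FADS1 and FADS2 are adjacent desaturase genes for polyunsaturated fatty acids on chromosome 11, on opposite strands, with 490 bases of exon in common. FADS2 was low, at 6.07 ± 0.196 TPM in WT and 7.41 ± 0.246 in CSE (limma adjusted p = 0.00411, log2 fold change 0.25), and FADS1 was at 33.1 ± 1.26 and 32.5 ± 1.83 TPM (limma adjusted p = 0.712, log2 fold change -0.025). The elongase ELOVL1, which acts on very long chains, had 126, 125 and 119 TPM in WT and 116, 116 and 113 in CSE. All CSE values were lower (limma adjusted p = 0.0485, log2 fold change -0.096), but the call was lost in 7 of 14 settings, among them the fit with the replicate number as a block (adjusted p = 0.0504). ELOVL5, which elongates polyunsaturated chains, was at 125 ± 2.56 and 118 ± 5.37 TPM (limma adjusted p = 0.0847, log2 fold change -0.088), and passed as lower under quantile normalization (adjusted p = 0.0302) and without mitochondrially encoded genes (0.00688). ELOVL6, which elongates saturated chains of intermediate length, was at 31.1 ± 1.62 and 34.0 ± 1.89 TPM (limma adjusted p = 0.0607, log2 fold change 0.12) and passed as higher in 5 of 14 settings.

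The acyl-CoA synthetases activate free fatty acids. ACSL3, an enzyme of lipid droplets and the endoplasmic reticulum, rose from 93.5 ± 1.95 to 109.5 ± 4.85 TPM (limma adjusted p = 0.000145, log2 fold change 0.23). ACSL4, which prefers arachidonic acid and similar chains, rose from 52.2 ± 1.05 to 56.8 ± 2.48 TPM (limma adjusted p = 0.033, log2 fold change 0.12), a call that was lost in 7 of 14 settings. ACSL1 had 24.0, 24.0 and 24.5 TPM in WT and 23.7, 22.6 and 21.0 in CSE. All its CSE values were below WT, without passing the test (limma adjusted p = 0.111, log2 fold change -0.10), and it passed as lower without mitochondrially encoded genes (adjusted p = 0.0188).

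**Figure D3:**
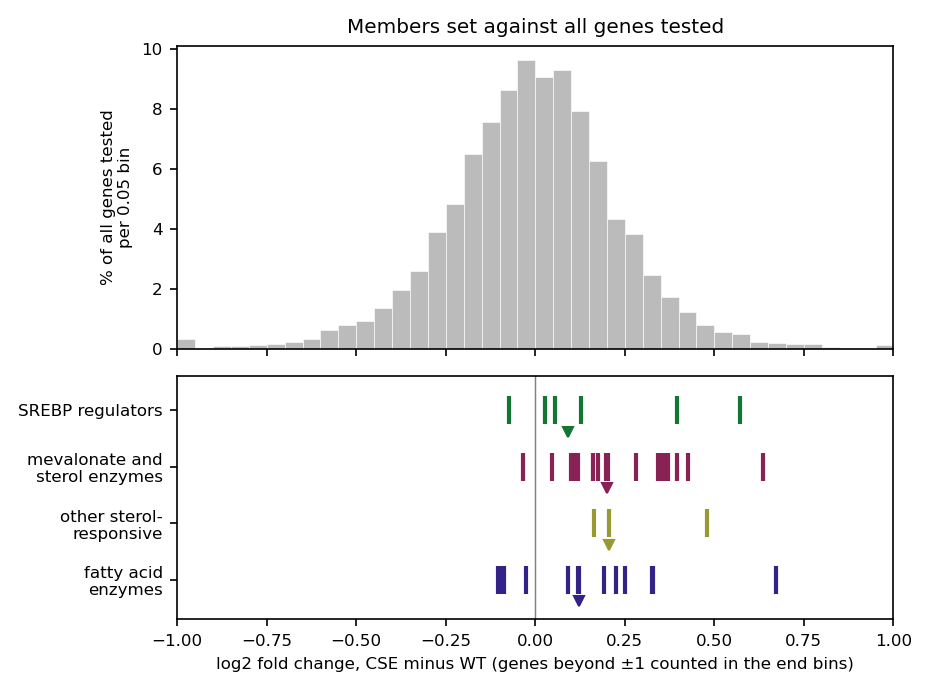
The upper panel gives the share of all 12793 genes tested in each bin of log2 fold change (CSE minus WT); in the lower panel each bar is a gene of the list and each triangle the median of its group. The medians are 0.09 for the SREBP regulators, 0.20 for the mevalonate and sterol enzymes, 0.21 for the other sterol-responsive genes and 0.12 for the fatty acid enzymes, against -0.0039 for all genes tested.

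Of the 18 mevalonate and sterol enzymes 14 rose (77.8%) and 0 fell, and of the 13 fatty acid enzymes 7 rose (53.8%) and 1 fell (7.69%). Of all genes tested, 24.5% were called higher and 25.6% lower. The difference between the arms was not tested. Summed over the 18 sterol enzymes, the level was 1299, 1266 and 1235 TPM in WT and 1510, 1504 and 1508 in CSE, a ratio of means of 1.19. Summed over the 13 fatty acid enzymes it was 1791, 1782 and 1750 TPM in WT and 2392, 2405 and 2168 in CSE, a ratio of 1.31. Without SCD the ratio was 1.12, from 1061 to 1183 TPM. The 3 CSE sums thus lay close together for sterol enzymes, while CSE replicate 3 was lower for fatty acid enzymes.

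**Figure D4:**
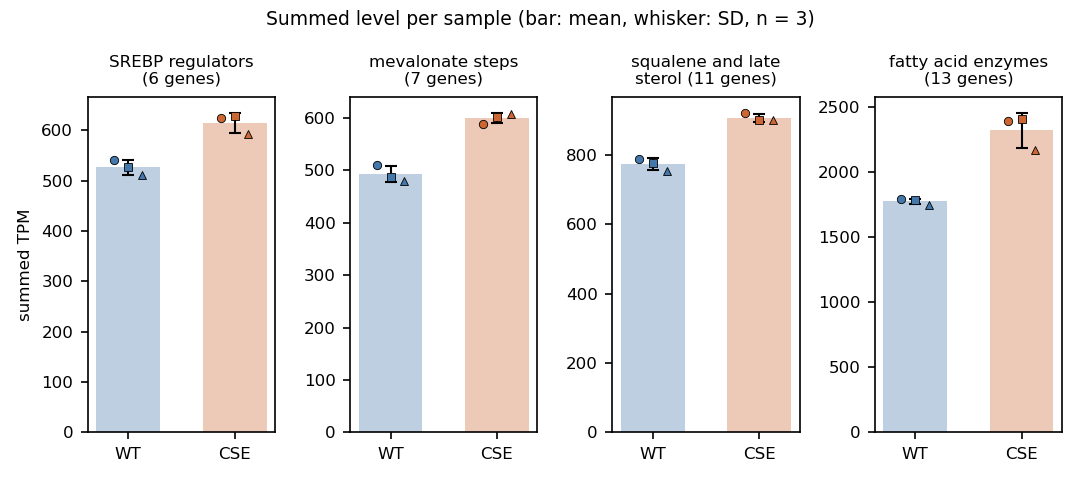
Summed TPM of 4 groups of genes in each sample; bars are means, whiskers SD (n = 3 samples), and symbol shapes give the replicate. The sums for mevalonate steps rise from 493 to 599 TPM and those for fatty acid enzymes from 1775 to 2322 TPM, with CSE replicate 3 at 2168 TPM.

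CSE replicate 3 held the lowest CSE value for 13 of 13 fatty acid enzymes and for 5 of 18 mevalonate and sterol enzymes. The same sample was the lowest of its group for 57.9% of all genes tested. In WT, replicate 3 was the lowest of its group for 31 of the 40 genes and for 57.8% of all genes tested, and it had the highest share of mitochondrially encoded transcripts (30.2%). The part of these libraries in the changes was measured by leaving each out: without CSE replicate 3, 30 of the 40 genes were called higher and 0 lower, with 27.6% of all genes tested higher, and without WT replicate 3, 20 were called higher and 1 lower, with 19.9% of all genes tested higher. The counts of the members and of all genes thus moved the same way. The spread within a group was small, with a median coefficient of variation over the 40 genes of 3.28% in WT and 3.10% in CSE.

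A factor that scales a whole library cancels in the ratio of 2 genes of the same sample. The 8 pairs of related genes were chosen after their values were seen and are given as a description. SREBF1 stood at 0.497, 0.488 and 0.494 of the level of SREBF2 in WT and at 0.718, 0.693 and 0.753 in CSE. INSIG1 was 2.33, 2.38 and 2.52 times the level of INSIG2 in WT and 3.06, 3.17 and 2.92 times in CSE.

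SCD was 22.4 times the level of SCD5, its paralog, in WT and 32.0 times in CSE. TM7SF2 was at 0.794 of the level of LBR, which has the same reductase activity, in WT and at 1.02 in CSE, so that the order of the group means changed. FADS2 went from 0.184 to 0.228 of the level of FADS1, and FADS3, the third gene of that cluster, from 3.82 to 2.75. ELOVL6 went from 0.249 to 0.289 of the level of ELOVL5, and ACSL3 from 1.79 to 1.93 times that of ACSL4.

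**Figure D5:**
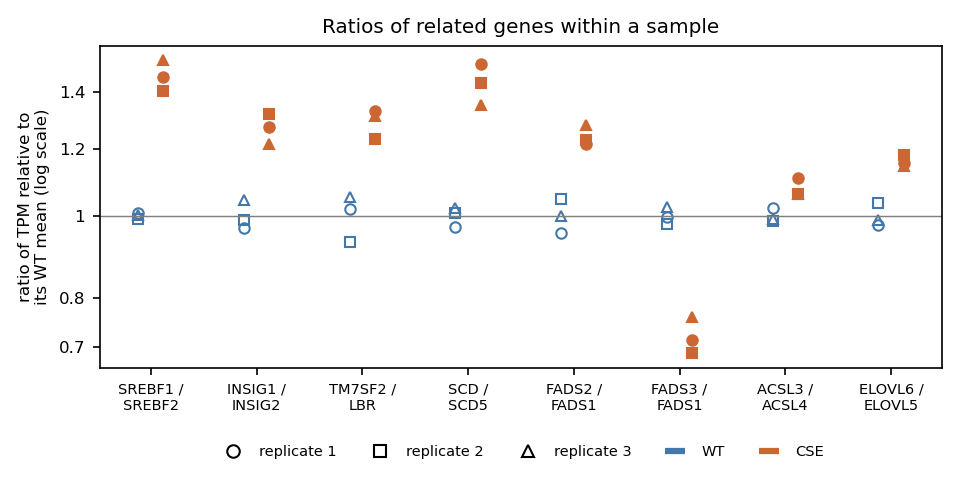
Ratio of the TPM of related genes within each sample, divided by the WT mean of that ratio, on a log axis; open blue symbols are WT, filled orange symbols CSE. The ratio of SREBF1 to SREBF2 rises from a mean of 0.493 to 0.721, and that of FADS3 to FADS1 falls from 3.82 to 2.75.

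Other genes of lipid metabolism moved both ways. Of 57 such genes listed, 54 were tested, and 17 were called higher and 13 lower (median log2 fold change 0.016), against the 24.5% higher and 25.6% lower of all genes. Of 10 genes of SREBP processing and its cofactors, 2 rose (20%, under the share of all genes), the NF-Y subunits NFYC (limma adjusted p = 0.000399, log2 fold change 0.25) and NFYB (limma adjusted p = 0.0103, log2 fold change 0.20). The other NF-Y subunit NFYA (-0.037, limma adjusted p = 0.574), SP1 (-0.063, 0.355) and the site proteases MBTPS1 (-0.074, limma adjusted p = 0.123) and MBTPS2 (0.078, 0.323) did not pass. Of 5 genes of sterol handling, NPC2, the lysosomal cholesterol carrier, went from 97.5 ± 0.917 to 139.9 ± 3.06 TPM (limma adjusted p = 5.48e-10, log2 fold change 0.52) and LBR from 72.1 ± 3.07 to 87.3 ± 1.70 TPM (limma adjusted p = 1.85e-05, log2 fold change 0.27). Among 4 genes of the liver X receptors and their targets, the sterol exporter ABCG1 fell from 5.87 ± 0.338 to 4.24 ± 0.723 TPM (limma adjusted p = 0.000863, log2 fold change -0.40), the receptor gene NR1H2 fell (limma adjusted p = 0.0036, log2 fold change -0.20), and NR1H3 rose (limma adjusted p = 0.00765, log2 fold change 0.22), while ABCA1 was near 2 TPM and did not pass.

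Of 16 tested genes of citrate and NADPH supply and other fatty acid synthesis, 9 rose (56.25%) and 5 fell (31.25%). Of all genes tested, 24.5% were called higher and 25.6% lower. ACSL5, a mitochondrial acyl-CoA synthetase, rose from 83.0 ± 3.05 to 111 ± 2.97 TPM (limma adjusted p = 4.36e-08, log2 fold change 0.42), and the citrate carrier SLC25A1 rose 1.14-fold (limma adjusted p = 0.000522, log2 fold change 0.19). FADS3 fell most, from 126 ± 4.75 to 89.3 ± 1.32 TPM (limma adjusted p = 2.23e-09, log2 fold change -0.49), followed by HACD3, a dehydratase of chain elongation (limma adjusted p = 2.29e-07, log2 fold change -0.38), and the elongases ELOVL7 (limma adjusted p = 0.000154, log2 fold change -0.30) and ELOVL3 (limma adjusted p = 0.000192, log2 fold change -0.27). In the isoprenoid branch 1 of 6 rose (16.7%) and 2 fell (33.3%). In glycerolipid synthesis 0 of 6 rose and 2 fell (33.3%), so the falls in both groups were near the 25.6% of all genes tested. DGAT2, which makes triglyceride, was among the 2 (limma adjusted p = 0.00524, log2 fold change -0.24). Of 7 genes of fatty acid oxidation 2 rose and 2 fell (28.6% each, near the 24.5% higher and 25.6% lower of all genes tested): CPT2 of the carnitine shuttle went from 16.7 ± 0.654 to 22.2 ± 0.665 TPM (limma adjusted p = 3.55e-06, log2 fold change 0.39), and the very long chain dehydrogenase ACADVL from 444 ± 11.8 to 357 ± 6.73 TPM (limma adjusted p = 3.77e-07, log2 fold change -0.32).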

How the data were processed

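Poly(A) RNA-seq libraries of 3 WT and 3 CSE samples of HCT116 were deposited as 1 table of TPM values. Per the submitters' processing notes, FastQC 0.11.2, Trimmomatic 0.36, HISAT2 2.0 and bedtools 2.26.0 were used with GRCh38; the sources used here do not name the counting program, annotation or strandedness. The authors' TPM have the same total in each sample, so the depth is unknown and no counting interval was computed. Symbols were matched for 20148 of 20263 IDs, 0 sample columns were left unmapped, and positions are from GENCODE 29.

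Genes with at least 1 TPM in at least 3 libraries (12793) were transformed to log2(TPM + 1), which understates changes of low genes, and tested with limma 3.58.1 in R 4.3.3 (trended variance, no covariate, two-sided, Benjamini-Hochberg over all genes, threshold 0.05). The members, gene lists and motifs were chosen with earlier results of these data known. Named are all 40 members, with every sample's value for those called with at least 1.2-fold and for SREBF1, SREBF2, SCAP, INSIG1 and INSIG2, and other pathway genes called with at least 1.2-fold; any other named gene was added after its values were seen. Promoter stretches shown are those of SREBF2 and of the 4 genes called with at least 1.2-fold whose stretch fitted: it held a CCAAT box and had to span all CCAAT boxes, sterol elements and E-boxes before the start with 20 bases on each side, lie outside the annotated gene and be at most 150 bases long. The fit was tested on simulated data. It recovered 12% of changes of 1.1-fold, 50% of 1.25-fold, 92% of 1.5-fold and 98% of 2-fold, with 3 false calls. Small changes are thus often missed, and a gene that did not pass may still have changed by little. Each result was recomputed with a pseudocount of 0.1, without the filter, with a filter at a mean of 5 TPM, with scaling by median of ratios or by quantiles, after removal of mitochondrially encoded genes, without the variance trend, with a replicate block, and without each sample.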

Additional observations from a re-analysis of the deposited data

How the results depend on the processing

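Over 14 alternative settings the number of the 40 genes called higher lay between 20 and 30, against 27. The share of all genes tested called higher lay between 15.8% and 27.6%, against 24.5%. The number of all genes called in either direction lay between 5408 and 6924, against 6407. The number called lower, 1 with TPM as deposited, was 2 with quantile normalization, 4 with mitochondrially encoded genes left out, 0 without the variance trend and 0 with the replicate block, and 0 to 1 when single samples were left out. Of the 28 calls, 20 passed in every setting, and 7 of the 12 genes not called passed in at least 1. The sign of SREBF2, INSIG2, MSMO1 and FADS1, none of them called in any setting, changed between settings.

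With the replicate block 28 of the 40 and 24.9% of all genes tested were called higher, and 6537 genes were called in either direction. Same-numbered samples had correlations of deviations from the group means of -0.071, 0.015 and -0.088 for numbers 1, 2 and 3. Differently numbered samples had between -0.089 and 0.123. With 3 samples a group, this cannot show whether the samples were paired. The depth of the libraries is unknown. Genes with pseudogenes or exons shared with other genes are uncertain as single values.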
